A study of Homo sapiens with 6 samples.

Results

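The genes described here are those of MHC class I antigen presentation: the class I heavy chains HLA-B, HLA-C, HLA-E and HLA-F, their light chain B2M, the peptide transporter genes TAP1 and TAP2, the loading factor TAPBP and the immunoproteasome subunit PSMB9. They were taken as every probe whose platform annotation gives one of these 9 symbols, which found 12 probes for 8 of the genes among 24526 probes and 16922 named genes. No probe is named HLA-B in the annotation used here, so HLA-B has no value. The samples are PC3 cells, an established androgen-independent human prostate carcinoma line, in 2 groups of 3 arrays each, 1 carrying a GFP (green fluorescent protein) transgene as the control and 1 carrying a GRK3 transgene. All cells were kept in RPMI with serum and antibiotics, and no other treatment is labelled. The labels give neither the vector nor the promoter of either transgene, nor whether a line is 1 clone or a pool. Nor do they say that arrays with different replicate numbers are different cultures. The p-values and intervals below therefore rest on the spread between arrays, which may be technical.

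In the class I pathway, proteasomes cut cytosolic proteins into peptides, the TAP1 and TAP2 transporter carries the peptides into the endoplasmic reticulum, and tapasin, the product of TAPBP, holds an empty class I molecule beside the transporter until a peptide fits. The loaded heavy chain and beta-2 microglobulin, the product of B2M, then travel to the cell surface, where T cells and natural killer cells read them. Interferon gamma and NF-kB raise transcription of these genes in many cell types, and reduced class I expression is a known route by which tumours, prostate carcinoma included, escape T cells.

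No tested class I probe passed the test for a difference between GRK3 and GFP cells, and HLA-B, HLA-C and PSMB9 could not be tested. B2M, HLA-E, HLA-F, TAP1, TAP2 and TAPBP were detected on all 6 arrays, and their 9 probes had differences (GRK3 minus GFP, log2 scale) from -0.29 to 0.08. HLA-C and PSMB9 were not above background on any array. With limma, 0 of the 9 tested member probes passed at an adjusted p under 0.05, and 0 of the 9 had a raw p under 0.05. Over all 14130 probes tested with limma, 0.573% passed the adjusted threshold, 0.375% as higher and 0.198% as lower, and 11.6% had a raw p under 0.05. The groups did not overlap at 0 of the 9 member probes, against 16.4% of all tested probes. With so few probes and such shares, the counts alone say little about the members. The 95% intervals say more, and all lay within a 1.5-fold difference in either direction, the widest, that of the dimmer TAP2 probe, reaching 1.49-fold. Under the alternatives with all arrays this bound reached 1.51-fold at that probe, and with GFP replicate 1 left out 1.61-fold. Both dimmer TAPBP probes were close to background, so their intervals bound the probe signal and not the transcript. The difference at TAPBP ILMN_1782851, -0.17, was -0.11 with no background correction and -0.12 with an offset of 50.

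The promoters of 4 members are shown because these genes gave the most unlike readings: B2M and TAP1 were detected on every array, HLA-C and PSMB9 on none, and TAP1 and PSMB9 lie back to back. The TAP1 and PSMB9 transcripts start 488 bases apart on opposite strands, and their windows share 13 bases. Each window runs from 250 bases before to 50 bases after the start of the gene, from RefSeq, written 5′ to 3′ on the strand of the gene. Capitals mark the 3 motifs searched on both strands. They are kappa B, the site bound by NF-kB, TGACG, the short core bound by CREB and related factors, and GAANNGAAA. GAANNGAAA covers only some sites of interferon regulatory factors, because pairs of GAAA with a longer spacing are not matched and stay in lower case. The 3 kinds do not overlap each other in these windows.
B2M promoter window, GRCh38.p14, chr15:44711267-44711566, plus strand: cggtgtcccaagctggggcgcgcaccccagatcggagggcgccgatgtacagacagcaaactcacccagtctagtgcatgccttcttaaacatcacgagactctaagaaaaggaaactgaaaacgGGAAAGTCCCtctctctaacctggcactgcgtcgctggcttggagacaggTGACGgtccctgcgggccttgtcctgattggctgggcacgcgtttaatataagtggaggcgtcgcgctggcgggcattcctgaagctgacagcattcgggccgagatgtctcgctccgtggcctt
TAP1 promoter window, GRCh38.p14, chr6:32853655-32853954, minus strand: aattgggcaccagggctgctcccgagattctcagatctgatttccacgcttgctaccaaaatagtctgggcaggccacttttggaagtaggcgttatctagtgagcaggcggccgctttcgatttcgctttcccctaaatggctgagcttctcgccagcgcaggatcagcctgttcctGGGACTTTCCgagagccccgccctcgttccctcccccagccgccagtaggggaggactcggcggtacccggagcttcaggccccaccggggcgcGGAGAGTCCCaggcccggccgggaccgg
PSMB9 promoter window, GRCh38.p14, chr6:32853942-32854241, plus strand: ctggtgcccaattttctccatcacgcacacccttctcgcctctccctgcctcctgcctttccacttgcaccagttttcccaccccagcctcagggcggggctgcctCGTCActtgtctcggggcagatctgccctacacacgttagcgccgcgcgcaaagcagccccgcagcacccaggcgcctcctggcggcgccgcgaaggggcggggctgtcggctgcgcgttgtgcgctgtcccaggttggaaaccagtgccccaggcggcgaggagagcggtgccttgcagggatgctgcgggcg
HLA-C promoter window, GRCh38.p14, chr6:31272043-31272342, minus strand: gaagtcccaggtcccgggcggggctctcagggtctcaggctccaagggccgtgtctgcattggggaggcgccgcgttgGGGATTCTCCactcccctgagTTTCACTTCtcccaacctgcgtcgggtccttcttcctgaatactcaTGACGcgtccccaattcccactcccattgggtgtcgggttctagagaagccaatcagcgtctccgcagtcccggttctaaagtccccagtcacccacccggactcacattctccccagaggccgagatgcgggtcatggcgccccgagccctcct

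Promoter entries were found for 8 of the 9 members, all but HLA-E. The kappa B motif was in the windows of 5 of these 8 genes, HLA-B, HLA-C, B2M, TAP1 and TAPBP, against 5.91% of all 35116 promoter windows. GAANNGAAA was in the windows of 3, HLA-B, HLA-C and TAP2, against 7.66% of all windows. These are counts of that pattern and not of all interferon regulatory factor sites. The windows of HLA-F, B2M, TAP1 and TAPBP hold pairs of GAAA with a longer spacing, on either strand, which were not counted. TGACG was in the windows of 5, HLA-B, HLA-C, B2M, TAP2 and PSMB9, against 24.6% of all windows. The window of a second, internal TAP1 start listed by RefSeq held none of the motifs. HLA-C, whose window holds all 3 motifs as searched, gave no signal above background. HLA-F, whose window holds none of these 3, was detected on all arrays. The sequence of the single HLA-C probe was not examined, so this contrast cannot relate the motifs to expression. A match is a run of letters and not a measured binding site.

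Of the classical heavy chains, which present peptides to cytotoxic T cells, only HLA-C had a probe (ILMN_2150787). Its detection p-values, which rank a probe among the negative controls, ran from 0.893 to 1. It read 4.92, 4.90 and 4.90 in GFP cells and 4.92, 4.99 and 4.96 in GRK3 cells on the log2 scale, against a lowest detected value between 5.66 and 5.79 per array. The signal of this probe is therefore at background in both groups, and no fold is given. Its sequence was not examined, so a probe that does not bind the HLA-C transcript and a low transcript cannot be told apart.

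HLA-E, a non-classical chain that displays leader peptides of other class I chains to natural killer cells, had log2 values of 8.93, 8.96 and 8.67 in GFP cells and 8.84, 8.74 and 9.03 in GRK3 cells (ILMN_1765258). The groups overlapped, and GFP replicate 3 was the lowest array and GRK3 replicate 3 the highest. Group means were 8.85 ± 0.16 and 8.87 ± 0.15 (SD, n = 3 each). The difference was 0.02, with a 95% interval from -0.24 to 0.28 and a limma adjusted p of 0.974.

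HLA-F, a non-classical chain found partly inside cells, had log2 values of 8.64, 8.55 and 8.33 in GFP cells and 8.53, 8.31 and 8.77 in GRK3 cells (ILMN_2186806). The GRK3 arrays held both the lowest and the highest value. Group means were 8.50 ± 0.16 and 8.54 ± 0.23 (SD, n = 3 each), a difference of 0.04 with a 95% interval from -0.26 to 0.33 and a limma adjusted p of 0.956.

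B2M, the light chain shared by all these heavy chains, was read well above background, with log2 values of 14.01, 13.86 and 13.85 in GFP cells and 14.00, 13.84 and 13.98 in GRK3 cells (ILMN_2148459). All 6 values lay within 0.17 on the log2 scale. The difference was 0.04, with a 95% interval from -0.17 to 0.25 and a limma adjusted p of 0.927. A fall of B2M in GRK3 cells of more than 0.17, or a rise of more than 0.25, lies outside that interval. These bounds depend on the scaling: with median scaling the difference was 0.11, with an interval from -0.12 to 0.35.

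**Figure D1:**
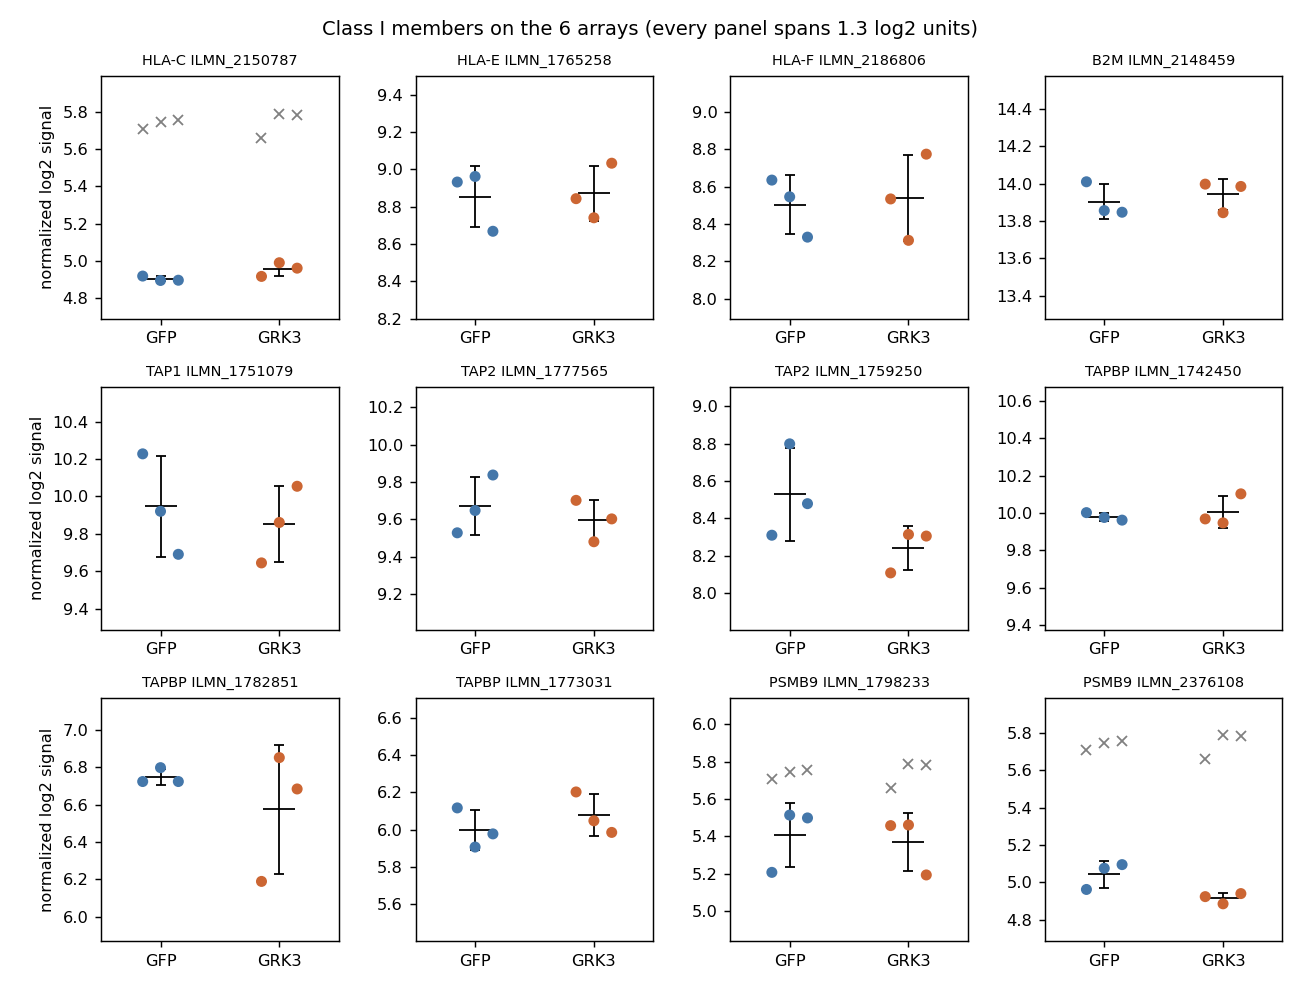
Normalized log2 signal (y axis) of the 12 member probes on the 3 GFP arrays (blue) and the 3 GRK3 arrays (orange), with replicates 1 to 3 from left to right, and the group mean ± SD in black; every panel spans the same height. Grey crosses in the panels of HLA-C and PSMB9 mark the lowest value detected on each array, which all of their points lie below, and in the other panels the groups overlap.

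TAP1, which encodes 1 chain of the peptide transporter, had log2 values of 10.23, 9.92 and 9.69 in GFP cells and 9.64, 9.86 and 10.05 in GRK3 cells (ILMN_1751079). Both groups spread over more than the distance between their means, 9.95 ± 0.27 and 9.85 ± 0.21 (SD, n = 3 each). The difference was -0.09, with a 95% interval from -0.43 to 0.24 and a limma adjusted p of 0.878. The sign turned when GFP replicate 1 (0.05) or GRK3 replicate 1 (0.01) was left out.

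TAP2, which encodes the partner chain, had 2 probes, annotated to different transcripts. The brighter (ILMN_1777565) read 9.53, 9.65 and 9.84 in GFP cells and 9.70, 9.48 and 9.60 in GRK3 cells. The dimmer (ILMN_1759250) read 8.31, 8.80 and 8.48 in GFP cells and 8.11, 8.31 and 8.31 in GRK3 cells. At the dimmer probe GRK3 replicates 2 and 3 read the same to 2 decimals as GFP replicate 1, so the groups just met there, while at the brighter probe they were interleaved. The dimmer probe had the largest difference of any member, -0.29 ± 0.13 (SE), with a 95% interval from -0.58 to 0.00 and a limma adjusted p of 0.442. This difference is larger than the SD of either group, 0.25 in GFP and 0.12 in GRK3 cells, and its unadjusted interval left out 0 under 6 of the 16 alternatives, from -0.48 to -0.0079 with no background correction and from -0.69 to -0.10 without GFP replicate 1, among others. Its limma adjusted p stayed between 0.285 and 0.785. Without GFP replicate 2, the highest array of this probe, the difference was -0.15. The brighter probe differed by -0.08, with a 95% interval from -0.32 to 0.17 and a limma adjusted p of 0.858.

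TAPBP, which encodes tapasin, had 3 probes annotated to different transcripts. The brightest (ILMN_1742450) read 10.00, 9.98 and 9.96 in GFP cells and 9.97, 9.95 and 10.10 in GRK3 cells, a difference of 0.03 with a 95% interval from -0.17 to 0.22 (limma adjusted p = 0.953). This was the narrowest reading of any detected member, with all 6 arrays within 0.16 on the log2 scale. Both other probes were close to background, with detection p-values up to 0.0291 and 0.0356. At ILMN_1782851 the values were 6.72, 6.80 and 6.72 in GFP cells and 6.19, 6.85 and 6.68 in GRK3 cells. GRK3 replicate 1 alone was low there, and the difference of -0.17 (limma adjusted p = 0.739) became 0.02 without it. ILMN_1773031 read 6.12, 5.91 and 5.98 in GFP cells and 6.20, 6.05 and 5.99 in GRK3 cells, a difference of 0.08 with a 95% interval from -0.14 to 0.30 (limma adjusted p = 0.837).

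**Figure D2:**
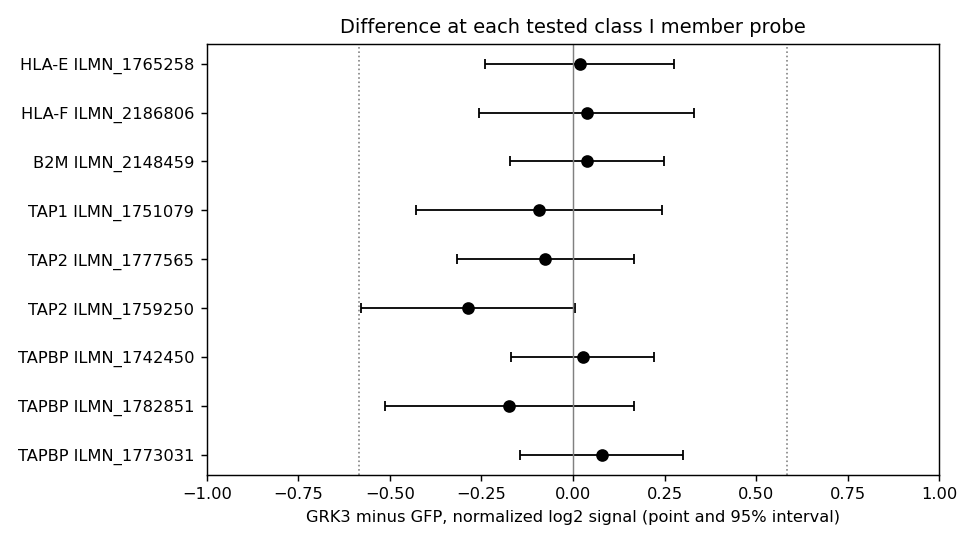
Difference GRK3 minus GFP in normalized log2 signal (x axis, point) with its 95% interval (bar) for the 9 tested member probes, from limma; dotted lines mark a 1.5-fold difference in either direction. All intervals include 0 and lie inside the dotted lines, and the dimmer TAP2 probe, at -0.29, lies furthest from 0.

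PSMB9, the interferon-inducible subunit that replaces a constitutive one in the immunoproteasome, had 2 probes and neither was above background on any array. Detection p-values ran from 0.0777 to 0.32 at ILMN_1798233 and from 0.537 to 1 at ILMN_2376108. The first read 5.21, 5.51 and 5.50 in GFP cells and 5.46, 5.46 and 5.19 in GRK3 cells, the second 4.96, 5.07 and 5.09 in GFP cells and 4.92, 4.88 and 4.94 in GRK3 cells. Values under background have no order, so neither probe gives a direction. In the RefSeq order of chromosome 6, TAP2, PSMB8, the antisense gene PSMB8-AS1, TAP1 and PSMB9 follow each other, so PSMB9 is the undetected end of a run whose protein-coding genes were otherwise detected.

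The other immunoproteasome genes, taken from a list of 6 of which 5 had a probe, were detected apart from POMP, the assembly factor. PSMB8, the second interferon-inducible subunit encoded in the MHC, was detected on all 6 arrays at each of its 4 probes. Its brightest probe read 9.82, 9.74 and 9.74 in GFP cells and 9.81, 9.60 and 9.73 in GRK3 cells, a difference of -0.05 with a 95% interval from -0.26 to 0.15 (limma adjusted p = 0.888). Its other probes differed by 0.07, 0.12 and 0.03. PSMB10, the third inducible subunit, and PSME1 and PSME2, the chains of the PA28 activator cap, differed by 0.04, 0.04 and 0.01, with limma adjusted p-values of 0.918, 0.904 and 0.975. Over the 4 tested genes of this list 0 passed, and the median difference was 0.03, against 0.00 over all 10586 named genes tested. The 14 tested constitutive proteasome genes also held 0 that passed, with a median of -0.03 and differences between -0.16 and 0.15. The groups did not overlap for 5 of those 14 genes, 3 higher and 2 lower in GRK3 cells, against 16.4% of all tested probes, and PSME3, at -0.16 (limma adjusted p = 0.538), was the furthest of these from 0.

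Among other class I and class I-like chains, 13 of 17 listed genes had a probe, 11 were tested and 0 passed. HLA-H, a class I pseudogene that is transcribed, read 9.73, 9.54 and 9.50 in GFP cells and 9.62, 9.42 and 9.77 in GRK3 cells, a difference of 0.01 (limma adjusted p = 0.982). HLA-G, the non-classical chain known from the placenta, differed by -0.06, with a 95% interval from -0.25 to 0.13 (limma adjusted p = 0.856). Class I genes are near-identical over long stretches and the probe sequences were not used here, so signal shared between HLA probes was not tested. The 2 genes with the lowest raw p in this list went in opposite directions. FCGRT, the neonatal Fc receptor chain that also pairs with beta-2 microglobulin, read 9.53, 9.31 and 9.37 in GFP cells and 9.70, 9.78 and 9.92 in GRK3 cells. MR1, which presents vitamin B metabolites to T cells, read 7.65, 7.42 and 7.35 in GFP cells and 7.06, 7.03 and 7.18 in GRK3 cells. In both the groups did not overlap, with differences of 0.40 and -0.38, but neither passed (limma adjusted p = 0.141 and 0.166). MICB, a stress ligand of natural killer cells, differed by -0.19 (limma adjusted p = 0.53), and its groups did not overlap either. ULBP1, another such ligand, differed by -0.21 (limma adjusted p = 0.76). Its groups overlapped, and its probe was close to background, with detection p-values up to 0.0356. Of the 11 tested genes, 1 was higher and 2 were lower in GRK3 cells without overlap, against 16.4% of all tested probes in either direction.

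Of 15 genes for peptide loading and trimming, 14 had a probe, 12 were tested and 0 passed, with a median of 0.00. HSPA5, the endoplasmic reticulum chaperone BiP, read 10.47, 10.33 and 10.50 in GFP cells and 10.73, 10.72 and 10.72 in GRK3 cells. Its groups did not overlap, and the difference of 0.29 ± 0.09 (SE) did not pass (limma adjusted p = 0.22). CALR and HSP90B1, which encode the chaperones calreticulin and GRP94, differed by 0.22 and 0.23 (limma adjusted p = 0.554 and 0.512). UGGT1, which tags misfolded glycoproteins for another folding round, differed by -0.21 at its brighter probe (limma adjusted p = 0.688). Its dimmer probe differed by 0.0017 (limma adjusted p = 0.998).

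The regulators of class I transcription also held 0 genes that passed, of 10 tested, with a median of -0.05. NLRC5, the transactivator of class I promoters, was detected on no array and is named here after its values were seen, as is IRF1, a transcription factor induced by interferon. IRF1 differed by -0.02 (limma adjusted p = 0.972). RELA, the p65 subunit of NF-kB, differed by -0.28 with a 95% interval from -0.54 to -0.01, and its limma adjusted p was 0.411. NFYB and NFYA, subunits of the factor that binds the CCAAT box, and RFXAP, a subunit of the RFX complex of MHC promoters, had differences of 0.25, -0.12 and -0.10 (limma adjusted p = 0.568, 0.693 and 0.78).

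Of 24 genes of the interferon gamma receptor and its response, 22 had a probe, 14 were tested and 0 passed, with a median of 0.06. GBP2, a guanylate-binding protein induced by interferon gamma, read 8.49, 8.29 and 8.31 in GFP cells and 8.66, 9.09 and 8.94 in GRK3 cells. All GRK3 arrays lay above all GFP arrays, and the difference of 0.53 ± 0.12 (SE) had a limma adjusted p of 0.102. The adjusted p fell to 0.0219 without GRK3 replicate 1 and to 0.0244 with array weights, settings that also raised the count over all probes. GBP2 passed under only those 2 of the 16 alternatives. Over all of them its limma adjusted p reached 0.337 and its difference ran from 0.41 to 0.65. IDO1, the tryptophan-degrading enzyme induced by interferon gamma, read 5.82, 6.05 and 5.68 in GFP cells and 6.44, 6.22 and 6.15 in GRK3 cells, a difference of 0.42 (limma adjusted p = 0.204). The IDO1 probe was close to background, detected on 5 of 6 arrays, and its difference was 0.27 with no background correction or with the authors' table. For IFNGR2, a receptor subunit, and JAK1, a kinase that signals from the assembled receptor, the differences were 0.21 and -0.30 (limma adjusted p = 0.438 and 0.429). The induced chemokines CXCL9, CXCL10 and CXCL11 were not detected on any array.

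Class II genes, which present peptides to helper T cells and are not read in most epithelial cells, were largely at background. Of 16 class II list genes with a probe, 12 had no probe detected on any array, HLA-DRA among them. The 3 tested genes were CD74, HLA-DMA and IFI30, with differences of -0.03, 0.29 and 0.06 (limma adjusted p = 0.966, 0.683 and 0.904). Of 10 tested genes that lower class I at the protein or chromatin level, 0 passed. MARCHF8, a ubiquitin ligase of membrane proteins, was the member of that list with the lowest raw p, at a difference of -0.19 (limma adjusted p = 0.462).

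**Figure D3:**
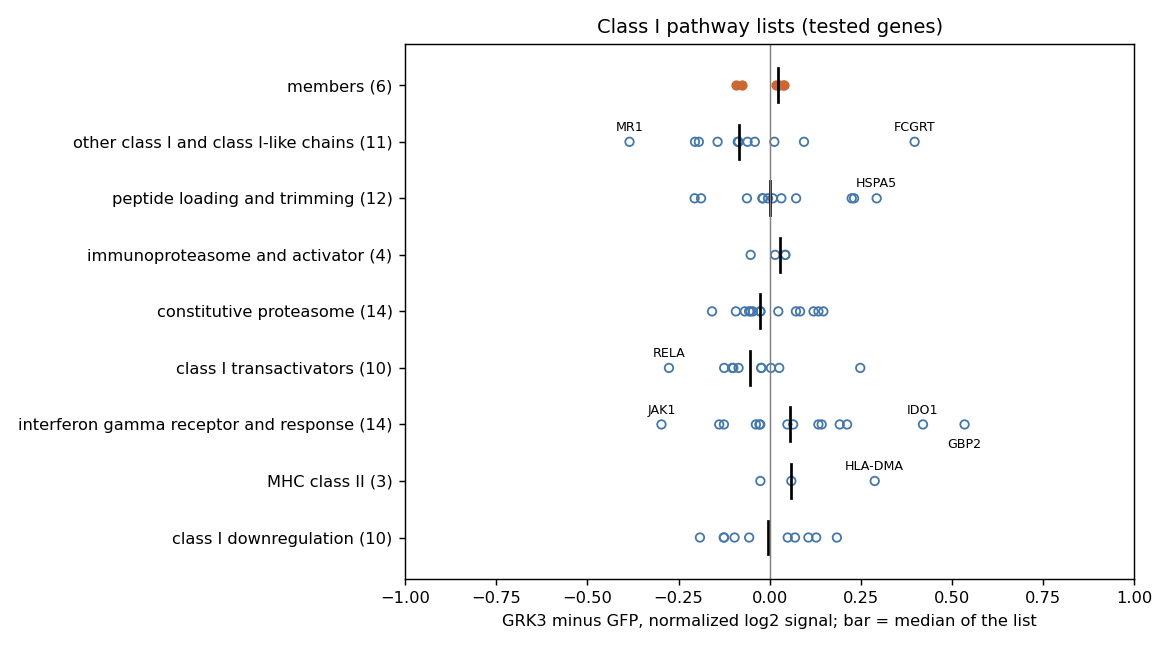
Difference GRK3 minus GFP in normalized log2 signal (x axis) for the tested genes of each class I pathway list, 1 point per gene at its brightest probe, with the number tested in brackets and the list median as a black bar; genes over 0.25 from 0 are named. The 6 tested member genes (filled) lie between -0.09 and 0.04, and no point in any list passed the adjusted threshold.

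Genes that lie among the members gave a like picture. Of 128 other genes with a probe between HLA-F and TAPBP in the RefSeq order of chromosome 6, 82 were tested, 0 passed with limma, and the median difference was -0.02. Their groups did not overlap with GRK3 higher in 5 and with GRK3 lower in 8, where 8% and 8.38% of all tested probes did so.

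Some member probes shared an order of the arrays that cuts across the groups. Of the 9 tested, HLA-F and the brightest TAPBP probe were highest on GRK3 replicate 3 and GFP replicate 1. Both were lowest on GRK3 replicate 2 and GFP replicate 3. Outside the members, HLA-H and IFI30 had both pairs, HLA-DMA had the highest pair alone and HLA-G had neither. HLA-E and B2M had the same lowest pair, and TAP1 the same highest pair. The other 4 member probes, both of TAP2 and the dim pair of TAPBP, had neither pair, and the brighter TAP2 probe was highest on GFP replicate 3. Over all tested probes, 9.64% had that highest pair, 4.03% that lowest pair and 0.87% both. The pairs were picked from the members' own values, so the members' counts beside these shares are a description and no test. Of the 9 member probes, 1 had both with median scaling, and 1 in the authors' table, against 0.75% and 0.651% of all tested probes. The same arrays had the lowest and the highest mean deposited signal, 1171 for GRK3 replicate 3 and 1215 for GFP replicate 1, against 1362 for GRK3 replicate 2 and 1387 for GFP replicate 3. In the deposited signals before any scaling, HLA-F read 427.7, 453.5 and 414.5 in GFP cells and 418.7, 398.4 and 448.8 in GRK3 cells. There 0 of the 9 member probes had that highest pair, against 0.212% of all tested probes. The part of array brightness in this order was not tested. Each group held 1 of the high and 1 of the low arrays.

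**Figure D4:**
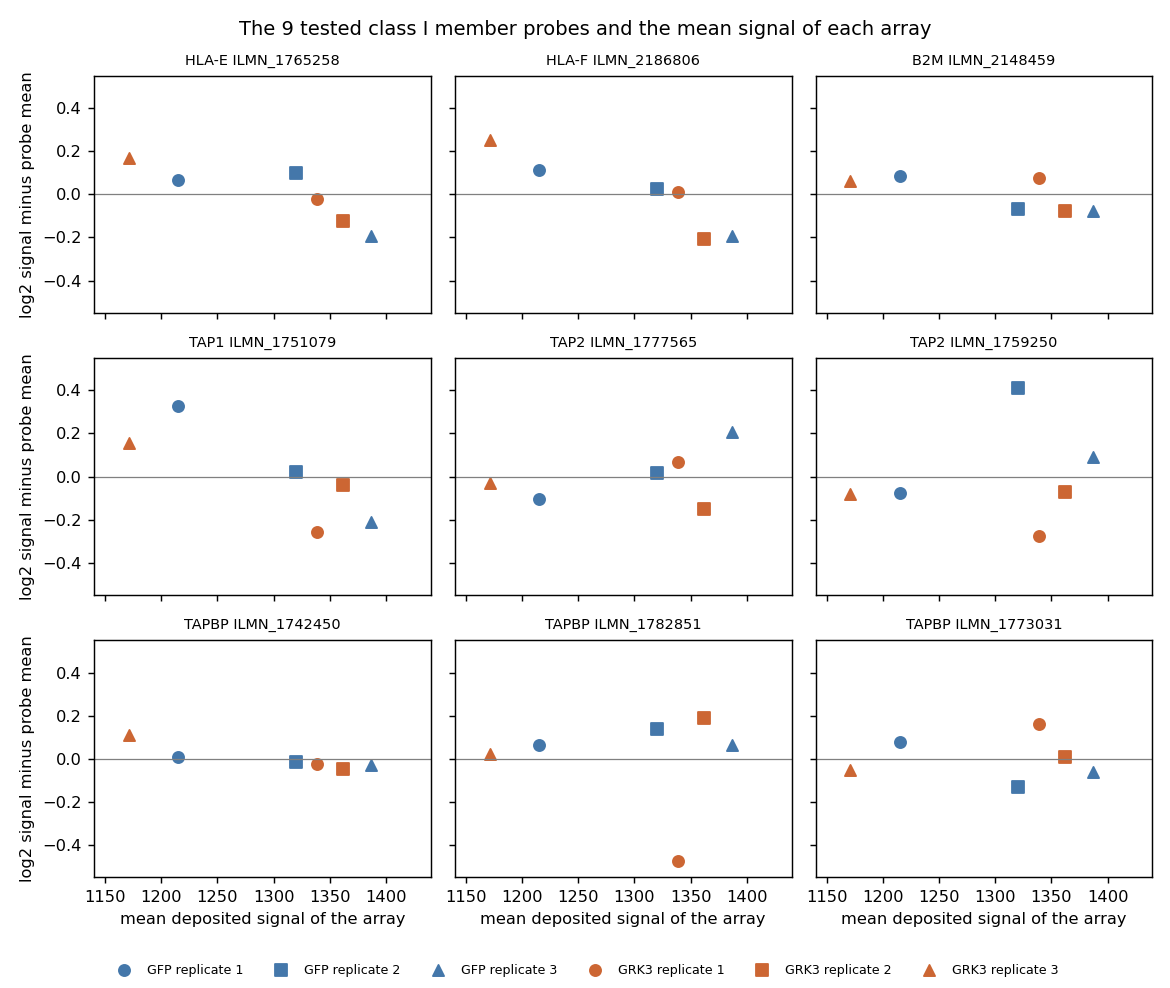
Normalized log2 signal minus the mean of the probe over the 6 arrays (y axis) against the mean deposited signal of the array (x axis) for each of the 9 tested member probes; colours are groups (blue GFP, orange GRK3) and shapes are replicates. HLA-F was highest on GRK3 replicate 3, the array with the lowest mean signal, 1171, and was low on the arrays with means of 1362 and 1387, while the TAP2 probes and the dim TAPBP probes did not follow this order.

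The genes most like the members were found by the correlation of each named gene with the mean standardized profile of the 6 tested member genes over the 6 arrays, among 2331 genes that ranged over at least 0.5. They were BOK, ESRRA, TCTN2, PCIF1 and B3GAT3, with Pearson r from 0.93 to 0.99. The most opposed were CCDC191, OSGEPL1, CFAP52, TMEM168 and AMT, with r from -0.99 to -0.92. The points share the arrays and their normalization, and with 6 points and 2331 candidates values of this size are a description only.

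The labels were checked against marker genes. All 5 epithelial markers, KRT8, KRT18, KRT19, EPCAM and CDH1, were detected on every array, and of 4 luminal prostate genes with a probe, 3, among them KLK3, were detected on none. Of 10 leukocyte genes with a probe, 7 were detected on no array, PTPRC among them. MS4A1 alone was detected on all, at a single probe close to background with detection p-values up to 0.0388. Its other probes were detected on none. The summed signal of the leukocyte list was 1162 to 1338 in GFP cells and 1181 to 1288 in GRK3 cells. Of 6 fibroblast genes, 3 were detected on no array, and COL1A1 and LUM were detected on all arrays with detection p-values up to 0.0388. The summed fibroblast signal was 644.9 to 733.8 in GFP cells and 645.6 to 733.3 in GRK3 cells, and the part of other cell types in the class I signal was not tested. For GRK3 itself, the single probe stayed at background throughout (detection p-values from 0.104 to 0.262), so the transgene was not read, and the labels do not say whether the construct holds the probe's target. In bulk RNA, fewer cells with a transcript and less of it per cell cannot be told apart.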

How the data were processed

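Total RNA of PC3 cells was measured on 6 Illumina HumanRef-8 v3 arrays, 3 per group, grouped by their titles. Per the file headers, the deposited table gives the average bead intensity of 24526 probes, not normalized, each with its detection p-value; the labels name no software. In the authors' value table, deposited as intensity, each column equals the first table times 1 factor, between 0.931 and 1.10, with column medians from 131.6 to 140.7. That comparison settles its linear scale, its lack of centring and its direction; it served as an alternative only.

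Probes were named from the platform annotation through the Entrez identifier: 21834 have 1 symbol, 2692 none and 0 several, and 21813 matched RefSeq (GRCh38.p14). From these, neqc (limma 3.58.1, R 4.3.3, offset 16) made background-corrected log2 values by quantile normalization. Probes with a detection p under 0.05 on at least 3 arrays were tested, 14130 in all, with lmFit and eBayes (two-sided, Benjamini-Hochberg adjustment over all of them). Mean signal was 1171 to 1387 per array, and 56.2% to 58.6% of probes were detected; the number of arrays limits the precision. Intervals are 95% intervals of the fit. A gene stands at its brightest tested probe.

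The members and lists were chosen with earlier results of these data known. Besides the members, up to 4 genes per list with the lowest raw p are named, all where at most 5 were tested. HLA-G, HLA-H, POMP, the undetected genes named and the region on chromosome 6 were added after their values were seen. So were the pairs of highest and lowest arrays. The fit was tested on simulated data. Alternatives changed the background step (none, or an offset of 50), the scaling (median, or the authors' table), the detection filter, the fit (array weights, an intensity trend, a replicate block), the arrays (each left out) and the summary of a gene (mean of its probes).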

Additional observations from a re-analysis of the deposited data

How the results depend on the processing

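The 0 calls among the 9 member probes held under all 16 alternatives with limma, where the lowest adjusted p was 0.285. The median difference of the member genes, 0.02, stayed within -0.07 and 0.07. Near 0 some signs turned. With the authors' value table the differences were -0.027 for HLA-E, -0.015 for HLA-F, -0.022 for the brightest TAPBP probe, -0.033 for HLA-H and -0.0028 for PSME2. With array weights PSME2 was -0.036 and CD74 0.028, with median scaling CD74 was 0.0035, and with the mean of its 3 probes TAPBP was -0.023. With 1 array left out, HLA-E ran from -0.075 to 0.084, HLA-F from -0.080 to 0.15, TAP1 from -0.22 to 0.048, the brighter TAP2 probe from -0.15 to 0.0072, and the TAPBP probes ILMN_1742450 and ILMN_1782851 from -0.022 to 0.055 and from -0.31 to 0.019. Among the other named genes the ranges that crossed 0 were CD74 from -0.15 to 0.059, HLA-H from -0.073 to 0.10, IFI30 from -0.014 to 0.15, PSMB10 from -0.028 to 0.098, PSMB8 from -0.10 to 0.0040, PSME2 from -0.067 to 0.063 and ULBP1 from -0.40 to 0.027. The cause was not tested, and values this close to 0 have no settled direction. Many other named genes kept their sign but moved by over 1.5 times with 1 array left out. Among them, HLA-DMA ran from 0.12 to 0.50, CALR from 0.12 to 0.31, HSP90B1 from 0.13 to 0.30 and UGGT1 from -0.35 to -0.069. NFYB ran from 0.16 to 0.42, RELA from -0.36 to -0.16, JAK1 from -0.43 to -0.18 and MICB from -0.25 to -0.11. RFXAP ran from -0.15 to -0.014, HLA-G from -0.085 to -0.028, PSME1 from 0.023 to 0.063 and NFYA from -0.18 to -0.0875. IFNGR2 ran from 0.16 to 0.27, IDO1 from 0.33 to 0.52, PSME3 from -0.19 to -0.12 and MARCHF8 from -0.22 to -0.14. All 9 member intervals lay within 1.5-fold under 10 of the 16 alternatives; median scaling and no detection filter (dimmer TAP2 probe), and leaving out GFP replicate 1 or 3 or GRK3 replicate 2 or 3 (also TAPBP ILMN_1782851), took a bound past it.

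The count over all probes depended more on the setting: it was 81, and became 134 with no background correction, 122 with an offset of 50, 23 with no detection filter (more probes tested), 136 with an intensity trend and 239 with array weights. With 1 array left out it was 39, 24 and 30 for GFP replicates 1, 2 and 3, and 190, 23 and 36 for GRK3 replicates 1, 2 and 3. With the replicate number as a block it was 11 and the members again had 0 calls. Deviations from the group mean at same-numbered arrays had correlations across probes of -0.41, 0.18 and -0.41. GFP replicate 1 with GRK3 replicate 3 gave 0.43, and GFP replicate 3 with GRK3 replicate 1 gave 0.51. Deviations within a group sum to 0, so these values constrain each other and cannot show whether the arrays were paired by design. Signal near background leaves HLA-C and PSMB9 unread.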
